A study of Mus musculus with 65 samples.

Results

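Of the 5002 DMC1 hotspots listed for Hormad1KO spermatocytes, 242 (4.84%) shared no base with any of the 13808 hotspots listed for the wild type. These 242 Hormad1KO-only hotspots were chosen by their positions in the 2 DMC1 lists, over all chromosomes, out of 18810 hotspots in both lists together, so every DMC1 measure of them below is a description. The other 4760 Hormad1KO hotspots overlapped a wild-type hotspot by at least 1 bp and are called shared hotspots below. A further 9048 wild-type hotspots overlapped no Hormad1KO hotspot and are called wild-type-only hotspots.

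Chromatin of mouse testes was precipitated in 65 samples that form 36 groups, each an antibody in a genotype, and 1 position list from each of 24 groups was used. The strain label read C57BL/6JCrl for every sample, although the genotype label of Prdm9KO names a B6;129P2 stock. Pups at 1.5 days after birth were fed WIN 18,466, a blocker of retinoic acid synthesis, for 7 to 10 days and were then injected once with retinoic acid. At collection, 8 days later, leptotene and zygotene spermatocytes made up 80 to 95% of the cells. All groups shared this synchronisation and were whole testis fixed in 4% formaldehyde for 15 minutes. The genotypes were the wild type, Prdm9KO (B6;129P2-Prdm9tm1Ymat/J), Spo11KO (Spo11tm1Mjn), Mei4KO (Mei4tm1Bdm), Iho1KO (Iho1tm1.2Atot) and Hormad1KO (Hormad1tm1.2Atot). DMC1 was mapped in the wild type and Hormad1KO, by a protocol that enriches single-stranded DNA after precipitation. MEI4, IHO1 and HORMAD1 lists were each used for 5 genotypes, SYCP3 for 6, and CTCF for the wild type. No protein's list in its own knockout was used, so there is no HORMAD1 list for Hormad1KO.

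Meiotic recombination begins with programmed double-strand breaks made by SPO11. In the mouse, the places of most breaks are set by PRDM9, a zinc finger protein that marks nucleosomes at its binding sites, and the ends of each break are resected to single-stranded DNA that the recombinase DMC1 coats. DMC1 hotspots are therefore read as maps of breaks under repair. MEI4 and IHO1 are partners of SPO11 that assemble on the chromosome axis and are needed for break formation, while HORMAD1 and SYCP3 are components of that axis. HORMAD1 recruits IHO1 to unsynapsed axes and supports normal break numbers. CTCF is an architectural DNA-binding protein that is not part of the break machinery.

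The letters of the hotspots themselves were not analysed here, because no genome sequence was used. Known promoter sequence lay inside 6 of the Hormad1KO-only hotspots. Below are 3 of these promoters, from RefSeq on GRCm38.p6, 5′ to 3′ on the gene's strand, with each CG dinucleotide in capitals. Each of the 3 sites met a SYCP3 peak of Iho1KO or Spo11KO. SYCP3 of Iho1KO was at 4 of the 6 hotspots with a gene start, against 22.1% of the 122 shared hotspots with one. For SYCP3 of Spo11KO it was 3, against 21.3%. Gene starts themselves were met by 2.55% of Hormad1KO-only and 2.64% of shared hotspots. Suz12 encodes a subunit of Polycomb repressive complex 2, Nim1k a serine/threonine kinase, and Dcaf8 a substrate receptor of a cullin ubiquitin ligase.
Suz12 promoter: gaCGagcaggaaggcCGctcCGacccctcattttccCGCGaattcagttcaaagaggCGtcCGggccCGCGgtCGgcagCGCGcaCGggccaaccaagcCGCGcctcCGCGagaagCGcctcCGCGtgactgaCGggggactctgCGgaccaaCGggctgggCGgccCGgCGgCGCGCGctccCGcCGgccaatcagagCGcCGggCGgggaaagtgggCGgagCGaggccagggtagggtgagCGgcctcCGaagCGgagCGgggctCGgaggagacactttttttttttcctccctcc
Nim1k promoter: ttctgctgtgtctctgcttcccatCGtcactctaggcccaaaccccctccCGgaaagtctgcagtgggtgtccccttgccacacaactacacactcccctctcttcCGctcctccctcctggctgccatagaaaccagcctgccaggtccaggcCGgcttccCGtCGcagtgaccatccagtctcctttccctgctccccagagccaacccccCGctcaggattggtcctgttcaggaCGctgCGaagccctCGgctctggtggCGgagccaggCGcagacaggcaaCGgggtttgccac
Dcaf8 promoter: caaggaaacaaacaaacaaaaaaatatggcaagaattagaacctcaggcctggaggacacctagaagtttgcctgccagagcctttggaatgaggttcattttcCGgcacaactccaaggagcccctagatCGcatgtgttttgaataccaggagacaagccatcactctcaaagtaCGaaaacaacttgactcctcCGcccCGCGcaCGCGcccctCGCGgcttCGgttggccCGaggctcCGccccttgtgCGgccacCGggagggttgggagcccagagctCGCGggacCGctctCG

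The Suz12 promoter (chr11:79992856-79993155, plus strand) held 41 CG dinucleotides and was 71.0% G and C. The Nim1k promoter (chr13:119755833-119756132, minus strand) held 13 CG and was 63.3% G and C, and the Dcaf8 promoter (chr1:172147765-172148064, plus strand) held 19 CG at 56.7%. The other 3 promoters were those of Stard7, a lipid transfer protein (27 CG, 67.0%), Zfp445, a KRAB zinc finger protein (10 CG, 53.7%), and the predicted gene Gm10334 (0 CG, 41.0%). The 6 had a median of 16 CG and 60.0% G and C, and 5 of 6 held at least 10 CG. CG was searched as letters, which read the same on both strands. At least 10 CG were held by 56.7% of 21262 promoters of the same length in the table. The share was 53.8% for the 65 promoters overlapping shared hotspots. Their medians were 13 and 12 CG. The cutoff of 10 equals the count of Zfp445, so 5 of 6 depends on it, and these shares were not tested. The table covers 17491 protein-coding genes and none on chromosome 18.

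Hormad1KO-only hotspots were weak. The deposited DMC1 value, a signal per hotspot whose unit the authors do not name, had a median of 17.5 over the 242 hotspots, with a middle 50% of 13.5 to 27.5 and a range of 3 to 719. Over the 4760 shared hotspots the median was 76.5, the middle 50% ran from 37.4 to 194, and the highest value was 10257. Both values come from the list that chose the hotspots, so they are given as a description. When the 5002 hotspots were ranked by value into 4 equal classes, 202 Hormad1KO-only hotspots (83.5%) fell in the weakest, where values ran from 3 to 34.5. They lay low within that class too, with a median of 16 against 25 for its 1049 shared hotspots. The next classes held 25, 8 and 7 of them. Among the weakest 251 hotspots of the whole list, with values up to 17, 113 (45.0%) were Hormad1KO-only, and among the next 250, with values up to 21.5, 43 were. At the other end, 15 exceeded the median of the shared hotspots and 11 had values over 100.

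**Figure D1:**
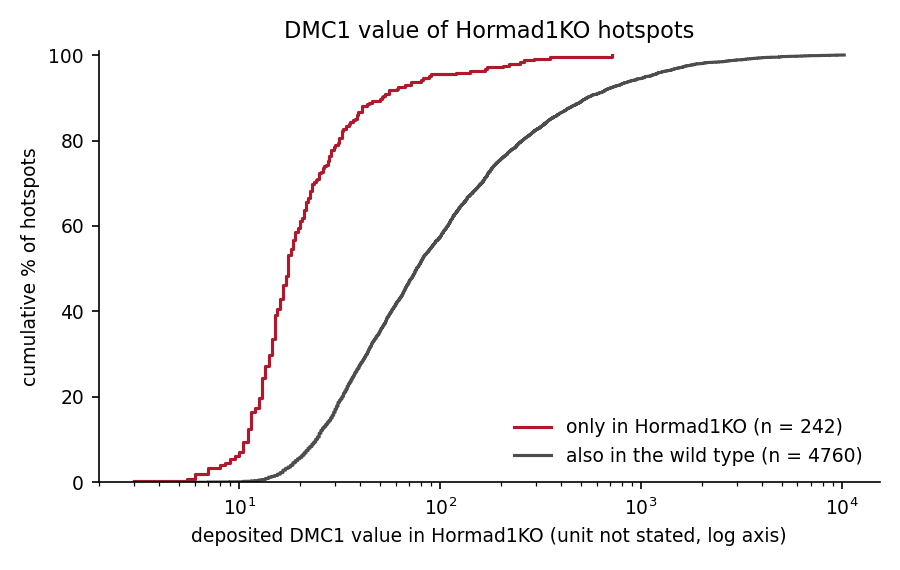
Cumulative share of hotspots (vertical axis, %) up to each deposited DMC1 value in Hormad1KO (horizontal axis, log scale, unit not stated), for 242 hotspots found only in Hormad1KO and 4760 also found in the wild type. The Hormad1KO-only curve lies to the left, with a median of 17.5 against 76.5, and a thin tail of 11 hotspots over 100.

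Their width was close to that of shared hotspots. The median was 1873 bp for Hormad1KO-only hotspots and 1933 bp for shared ones, and the middle 50% was broader in the former, 1592 to 2320 bp against 1748 to 2153 bp. The narrowest Hormad1KO-only hotspot spanned 808 bp and the widest 4462 bp.

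The rule left no borderline cases. The Hormad1KO-only hotspot nearest to a wild-type hotspot was 1101 bp from it, and no shared hotspot overlapped its wild-type partner by under 500 bp. The smallest overlaps on the other side of the rule were 966 bp at chr14:32952500-32953465 (value 82.5), 1048 bp at chr1:84814855-84816152 (value 202.5) and 1060 bp at chr7:52445504-52446563 (value 15.5). The median overlap of shared hotspots was 1804 bp. An overlap of 50% of the shorter interval chose the same number, 242, and asking for no wild-type hotspot within 5 kb left 231. The number did depend on how much of the wild-type list was used: against only the upper 50% of wild-type hotspots by value, 721 Hormad1KO hotspots had no partner. A hotspot missing from the wild-type list is thus not shown to lack DMC1 there, and the threshold of that list is not given in the sources used here.

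The 242 hotspots lay between wild-type hotspots at widely varying distances. The median distance to the nearest wild-type hotspot was 64.9 kb, the middle 50% ran from 24.0 to 138 kb, and the farthest was 2274 kb away. None lay within 1 kb, 11 lay at 1 to 5 kb, 35 at 5 to 20 kb, 55 at 20 to 50 kb, 58 at 50 to 100 kb, 80 at 100 to 1000 kb and 3 beyond that. The 11 nearest had a median DMC1 value of 52, against 20.5 in the next distance class and 15.75 at 100 to 1000 kb. The nearest wild-type hotspot itself had a median wild-type value of 240 (middle 50% 78.5 to 830), and in 154 of 242 cases it exceeded 129, the median of the wild-type list.

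MEI4 was rarely called at these hotspots. In Hormad1KO itself, 20 of 242 (8.26%, Wilson 95% interval 5.41 to 12.4) overlapped a MEI4 peak, against 3309 of 4760 shared hotspots (69.5%) and 66.6% of all Hormad1KO hotspots. The difference was −61.3 percentage points, with a Newcombe 95% interval of −64.4 to −56.9. Differences are called where this interval excludes 0. There is 1 list per protein and genotype, so nothing here was checked against replicates, the intervals hold counting error alone, and no p-value is given. Where hotspots of like strength were compared, the gap narrowed but was still called: averaged over the 4 value classes with the weights of the Hormad1KO-only hotspots it was −29.1 points (−32.4 to −24.9), and over 20 finer classes −22.1 (−26.1 to −17.3).

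Within the weakest class, 4 of 202 Hormad1KO-only hotspots (1.98%) had a MEI4 peak in Hormad1KO, against 319 of 1049 shared hotspots (30.4%). In the second class it was 10 of 25 (40.0%) against 62.1%, in the third 3 of 8 against 85.4%, and in the strongest 3 of 7 against 94.0%. All 4 class differences were called lower. Among the Hormad1KO-only hotspots themselves, MEI4 was called at 16 of the 40 in the 3 stronger classes and at 1.98% of the weakest, a difference of 38.0 points (24.0 to 53.5).

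In Iho1KO, 18 of the 242 (7.44%, 4.76 to 11.4) had a MEI4 peak, against 52.7% of shared hotspots and 50.5% of all. The difference of −45.3 points (−48.3 to −41.0) shrank to −8.47 (−11.2 to −4.57) over 4 value classes. By class, the Iho1KO shares were 2.48% against 9.06% in the weakest, called lower, 8 of 25 (32.0%) against 32.7% in the second (−0.65 points, −15.7 to 19.1), 3 of 8 against 69.5% in the third, not called, and 2 of 7 against 92.4% in the strongest, called lower. In Spo11KO, which lacks the enzyme that makes the breaks, MEI4 was found at 6 (2.48%, 1.14 to 5.30) against 65.3% of shared hotspots and 62.3% of all, and at none of the 202 weakest, which allows a share of up to 1.49%. The Spo11KO difference over 4 value classes was −36.8 points (−39.4 to −33.1). In the wild type 2 had a MEI4 peak (0.83%, 0.23 to 2.96), against 29.7% and 28.3% of all, a difference of −28.8 points (−30.3 to −26.3) that became −8.90 over 4 value classes. In Prdm9KO, whose MEI4 list holds 80 peaks, 1 did (0.41%) against 0.084% of shared hotspots and 0.1% of all, a difference that was not called (−0.036 to 2.22).

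**Figure D2:**
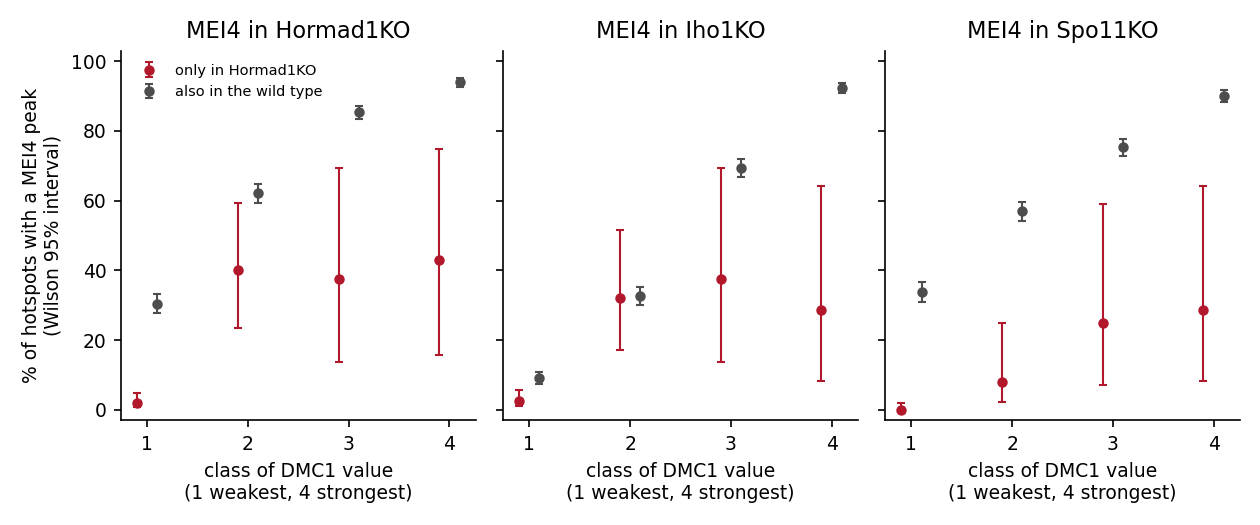
Share of hotspots with a MEI4 peak (vertical axis, %, with Wilson 95% intervals) by class of deposited DMC1 value (horizontal axis, 4 equal classes of the Hormad1KO list) in Hormad1KO, Iho1KO and Spo11KO. Points are hotspots found only in Hormad1KO (202, 25, 8 and 7 per class) and hotspots also found in the wild type; the Hormad1KO-only share is the lower in each class of each panel, by least in the second class of Iho1KO (32.0% and 32.7%), and in the weakest class no Hormad1KO-only hotspot had MEI4 in Spo11KO.

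The MEI4 peaks that were present were centred farther from the DMC1 hotspot's centre than those at shared hotspots. The median distance between the centres was 365.5 bp for the 20 peaks of Hormad1KO (139 bp at shared hotspots), 256 bp for the 18 of Iho1KO (135 bp), 489 bp for the 6 of Spo11KO (123 bp), 550 bp for the 2 of the wild type (186 bp) and 5201.5 bp for the single peak of Prdm9KO (810.5 bp). The peaks at these hotspots were also wider than their whole lists. Median widths were 2069 bp against 1726 bp in Hormad1KO, 2045.5 against 1783 in Iho1KO and 3152 against 1661 in Spo11KO. They were 2483.5 against 1946.5 in the wild type and 23260 against 2012 in Prdm9KO. A wider peak can meet a hotspot with its centre farther away, and the distances were not tested. Only 1 of the 20 peaks of Hormad1KO, and 0 of the 18 of Iho1KO, also reached a wild-type hotspot. For MEI4 of Spo11KO it was 1 of 6, and for CTCF 1 of 16. The share was larger for wild-type HORMAD1 (2 of 4 peaks), SYCP3 (2 of 3) and IHO1 (1 of 3), and for SYCP3 of Hormad1KO (1 of 3). Those wild-type peaks had median widths of 7124.5, 7488 and 5328 bp, so their counts below include peaks shared with a wild-type hotspot. In the remaining lists no peak did so. When each of the 242 intervals was moved by 10 kb to either side, 10 of 484 windows (2.07%) met a Hormad1KO MEI4 peak and 8 (1.65%) an Iho1KO one, below the 8.26% and 7.44% in place. For Spo11KO the moved windows gave 1.45%, against 2.48% in place, and for the wild type 1.24% against 0.83%. In Prdm9KO both were 0.41%. For IHO1 of Hormad1KO and of Spo11KO, moved windows gave 1.86%, against 2.89% in place. For HORMAD1 of Prdm9KO they gave 1.03% against 1.24%.

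In all, 28 Hormad1KO-only hotspots (11.6%) had MEI4 in at least 1 of 5 genotypes, against 78.9% of shared hotspots and 75.7% of all. It was 1 genotype for 16 of the 28 (57.1%, against 16.4% of shared hotspots with MEI4), 2 for 7, 3 for 3 and 4 for 2 (7.14%, against 30.1%). The Hormad1KO and Iho1KO peaks coincided at 11 hotspots, 55.0% of the Hormad1KO set and 61.1% of the Iho1KO set, and among shared hotspots these shares were 71.6% and 94.5%. Hormad1KO and Spo11KO coincided at 5, which is 25% of the former and 83.3% of the latter, against 82.4% and 87.6% among shared hotspots. These overlaps are descriptions without a test. Both hotspots with wild-type MEI4 also had it in Hormad1KO. These are chr19:24381985-24384680, described below, and chr8:106969250-106970974 in Sntb2, a syntrophin gene, with a DMC1 value of 171.5 and MEI4 in the wild type, Spo11KO, Iho1KO and Hormad1KO. The Sntb2 site is named because it makes up that pair, and was chosen after its values were seen.

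The 20 hotspots with MEI4 in Hormad1KO had a median DMC1 value of 51.0 (16.5 to 719) and lay a median of 23.4 kb from a wild-type hotspot. The 222 without it had a median value of 16.75 and lay 68.3 kb away. By distance, MEI4 of Hormad1KO was present at 6 of the 11 hotspots under 5 kb from a wild-type hotspot and at 14 of the 231 farther ones (6.06%), a difference of 48.5 points (21.7 to 72.8). For MEI4 of Iho1KO the counts were 6 of 11 and 12 of 231 (5.19%), and for Spo11KO 4 of 11 and 2 of 231 (0.87%). All 3 differences were called, but the split used positions in the wild-type list, which also chose the hotspots. The 11 nearer hotspots were also stronger, with a median DMC1 value of 52 against 17 for the 231 farther ones. Distances were not compared among hotspots of like value, so an effect of distance apart from value was not tested. By gene overlap, 15 of 107 hotspots in a gene (14.02%) and 5 of 135 outside genes (3.70%) had MEI4 in Hormad1KO, a difference of 10.3 points (3.22 to 18.4). Shared hotspots also had MEI4 in Hormad1KO more often in a gene (2041 with and 763 without, 72.8%) than outside genes (1268 with and 688 without).

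**Figure D3:**
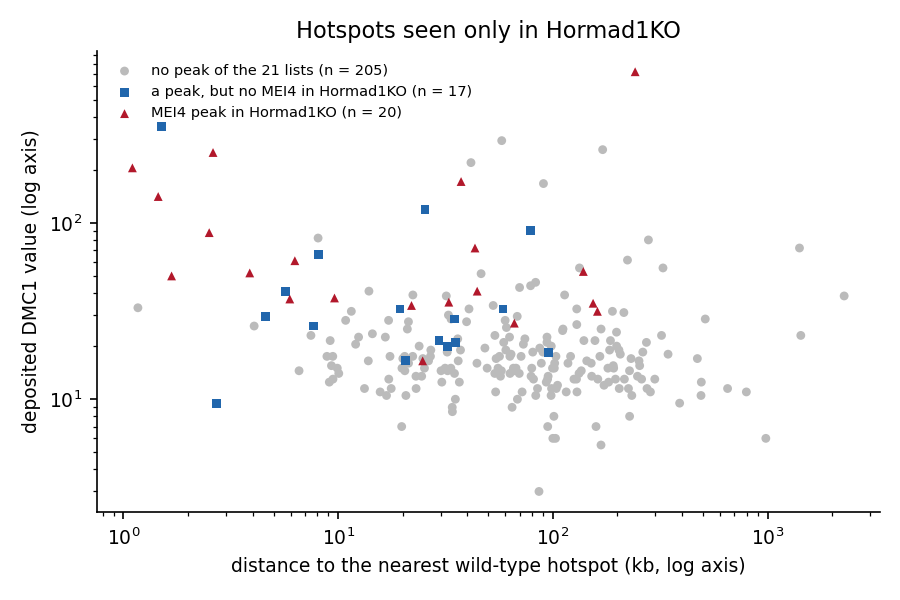
Deposited DMC1 value (vertical axis, log scale) against distance to the nearest wild-type hotspot in kb (horizontal axis, log scale) for the 242 hotspots found only in Hormad1KO. Triangles are the 20 with a MEI4 peak in Hormad1KO, squares the 17 with a peak of another list, and grey circles the 205 with none of 21 lists; 6 of the 11 points under 5 kb are triangles.

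IHO1, which binds HORMAD1 and carries MEI4 with its partners to the axis, was called at 7 Hormad1KO-only hotspots in Hormad1KO (2.89%, 1.41 to 5.85), against 35.9% of shared hotspots and 34.3% of all. The difference of −33.0 points (−35.0 to −29.7) was no longer called once hotspots of like value were compared, at −2.77 points (−4.12 to 0.18) over 4 classes and −2.38 (−4.22 to 1.55) over 20. From the weakest class to the strongest, the shares were 0.99% against 0.95%, 0 of 25 (which allows up to 12%) against 9.96%, 3 of 8 against 42.2%, and 2 of 7 against 84.6%, of which the last alone was called. Of the 7, 6 (85.7%) also had MEI4 in Hormad1KO, as did 97.1% of shared hotspots with IHO1 there. In Spo11KO, 7 had IHO1 (2.89%) against 36.6% of shared hotspots and 34.9% of all, a difference of −33.7 points that was still called over 4 classes at −11.7 (−13.8 to −8.18). In the wild type 3 had IHO1 (1.24%, against 11.1% and 10.6% of all), in Prdm9KO 2 (0.83%, against 0.25% and 0.28% of all) and in Mei4KO 0, which allows up to 1.24%, against 0.27% and 0.26% of all. The wild-type difference (−9.83 points) was called, but not over 4 value classes, and the other 2 were not called.

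Of the 11 lists of the axis proteins HORMAD1 and SYCP3, 4 were called lower at these hotspots and 1 higher. HORMAD1 was found at 4 in the wild type (1.65%, against 12.5% of shared hotspots and 12% of all), at 2 in Spo11KO (0.83%, against 13.3% and 12.7%), at 6 in Mei4KO (2.48%, against 1.41% and 1.46%), at 2 in Iho1KO (0.83%, against 2.35% and 2.28%) and at 3 in Prdm9KO (1.24%, against 0.23% and 0.28%). The first 2 differences were called lower, at −10.8 and −12.4 points, but not over 4 value classes. The Prdm9KO difference was called higher, at 1.01 points (0.17 to 3.35), and was lost without 1 hotspot on chromosome 9 described below, at 0.60 (−0.03 to 2.75). The others, chr13:119754995-119756896 and chr13:119727206-119728505, both lie in Nim1k, 26489 bp apart.

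SYCP3 was found at 3 in the wild type (1.24%, against 20.5% and 19.6% of all) and at 6 in Spo11KO (2.48%, against 11.6% and 11.1%), both called lower, at −19.3 and −9.08 points, the second not over 4 value classes. It was found at 9 in Iho1KO (3.72%, 1.97 to 6.92, against 3.403% and 3.42% of all), 3 in Hormad1KO (1.24%, against 3.59% and 3.48%), 2 in Prdm9KO (0.83%, against 0.21% and 0.24%) and 0 in Mei4KO, which allows up to 1.24%, against 0.55% and 0.52%. None of these 4 differences was called. For Iho1KO the comparison at like value was called higher, at 2.36 points (0.65 to 6.06) over 4 classes. Windows moved by 10 kb met this list at 2.07% for Hormad1KO-only and 1.44% for shared hotspots, so the surroundings differed too. The 9 hotspots include the site of 15 lists described below and both Nim1k hotspots on chromosome 13, 26489 bp apart. SYCP3 in Iho1KO has 1 sample. Its peaks met 6 of 202 Hormad1KO-only hotspots of the weakest class (2.97%) and 1.05% of the shared ones, and 3 of 25 in the second class (12.0%) against 1.63%. In the other 2 classes it was 0 of 8 (Wilson upper limit 32.4%) against 1.53%, and 0 of 7 (Wilson upper limit 35.4%) against 9.01%, neither called. Of the 9 hotspots with SYCP3 in Iho1KO, 4 held a gene start and 8 lay in a gene, against 16.7% and 64.2% of the 162 shared hotspots with that peak.

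CTCF peaks of the wild type overlapped 16 Hormad1KO-only hotspots (6.61%, 4.11 to 10.5), 7.10% of shared hotspots and 7.08% of all. The difference of −0.49 points had an interval of −3.10 to 3.43. The moved windows met CTCF in 4.55% of cases.

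Over the 22 lists, 12 differences were called, 11 lower and 1 higher. With value classes, 6 were called lower over 4 classes. These were MEI4 of the wild type, Spo11KO, Iho1KO and Hormad1KO, IHO1 of Spo11KO and SYCP3 of the wild type. The 2 called higher were HORMAD1 of Prdm9KO and SYCP3 of Iho1KO. They rested on 3 and 9 hotspots, and each set includes the site of 15 lists described below and both Nim1k hotspots on chromosome 13. Of the 242 hotspots, 205 (84.7%, 79.6 to 88.7) met no peak of the 21 MEI4, IHO1, HORMAD1 and SYCP3 lists, against 20.04% of shared hotspots. The other 37 (15.3%, against 76.8% of all Hormad1KO hotspots with a peak of any list) had 1 list in 14 cases, 2 in 8, 3 in 6, and from 4 to 15 in 9. Of the 37, 15 had MEI4 alone (40.5%, against 36.9% of shared hotspots with a list), 13 MEI4 with another protein (35.1%, against 61.8%), and 9 another protein without MEI4 (24.3%, against 1.29%).

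**Figure D4:**
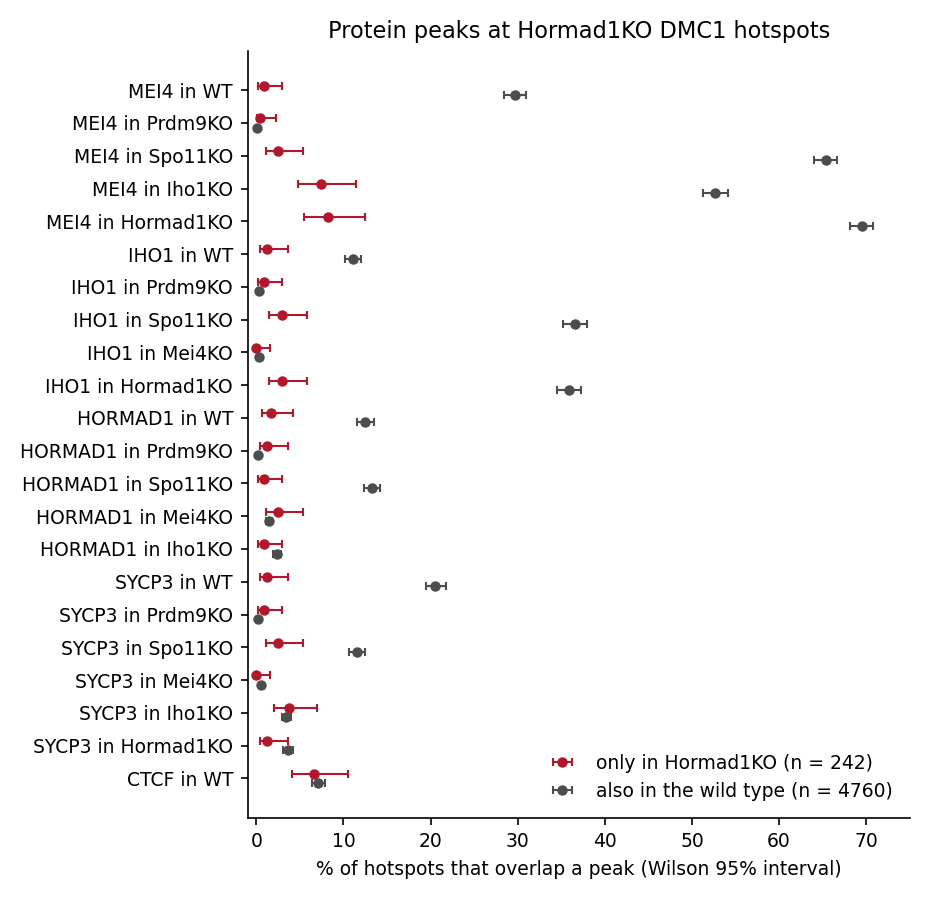
Share of hotspots that overlap a peak (horizontal axis, %, with Wilson 95% intervals) for each of the 22 protein lists (rows). Red points are the 242 hotspots found only in Hormad1KO, all under 10%, and grey points the 4760 also found in the wild type, which reach 69.5% for MEI4 in Hormad1KO; the CTCF shares are 6.61% and 7.10%.

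Strong Hormad1KO-only hotspots were few, and the 5 with the highest values carried different sets of peaks. The strongest, chr3:97258484-97260628, had a value of 719, rank 361 of the 5002. It lies in Bcl9, a coactivator of beta-catenin, 241.7 kb from the nearest wild-type hotspot. MEI4, IHO1 and SYCP3 of Hormad1KO all had a peak there and no list of another genotype did. It is 1.67 Mb from Hormad1 (chr3:95559677-95587863), the gene disrupted in these mice. Within 20 Mb of Hormad1, 5 of 81 hotspots (6.17%) were Hormad1KO-only, against 4.84% overall. The second, chr9:58982745-58984158 in the netrin receptor gene Neo1, had a value of 351.5, lay 1508 bp from a wild-type hotspot, and had MEI4 and IHO1 in Spo11KO and SYCP3 in the wild type, but no MEI4 in Hormad1KO.

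No peak of any list was found at the third and the fourth. They are chr14:118428334-118430263 (value 292.5), outside genes and 52.4 kb from the transporter gene Abcc4, and chr12:113937450-113939783 (value 260), 391 kb from Adam6a, its nearest protein-coding gene in the table. The fifth, chr1:84811033-84812316 in the ubiquitin ligase gene Trip12, had a value of 250.5, lay 2614 bp from a wild-type hotspot, and had MEI4 in Iho1KO and Hormad1KO and IHO1 in Hormad1KO. The gene table gives gene bodies without exons, so exon and intron were not told apart.

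None of these was among the 5 hotspots met by the most lists. With 15 of 21 lists, chr9:124277947-124281041 in the predicted gene Gm39469 had a value of only 34 and lay 21.96 kb from a wild-type hotspot. Its peaks were very wide, 23260 bp for the single MEI4 peak of Prdm9KO, against a median of 2012 bp in that list. Without it, the Hormad1KO MEI4 difference was −61.6 points, and the difference for SYCP3 in Hormad1KO was called lower, at −2.76 (−3.59 to −0.56). Next, with 7 lists each, were chr9:107695976-107697230 in the semaphorin gene Sema3f (value 205, MEI4 in Spo11KO, Iho1KO and Hormad1KO), which was also the nearest of all to a wild-type hotspot at 1101 bp, and chr13:119754995-119756896 at the Nim1k promoter printed above (value 35.5). Both overlapped CTCF as well. With 6 lists each, chr15:68816280-68817663 (value 141) lay 110.7 kb from the RNA-binding protein gene Khdrbs3 and 1452 bp from a wild-type hotspot, and chr19:24381985-24384680 (value 53) lay in Pip5k1b, a phosphoinositide kinase gene, 138.7 kb from one. Both had MEI4 in Spo11KO, Iho1KO and Hormad1KO, and the second also in the wild type.

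At the edges of the distance range, chr19:28008264-28010145 in Rfx3, a transcription factor of ciliated cells, lay 1168 bp from a wild-type hotspot, had a value of 33 and met no list. The 3 farthest also met no list. Of these, chr9:3024760-3025567 (value 72) and chr9:3004040-3005601 (value 23) lay 1408 and 1428 kb from the first wild-type hotspot of the chromosome, and 309.7 and 329.6 kb from Alkbh8, a tRNA-modifying enzyme. The third was chrX:25728260-25729785 (value 38.5), 2274 kb from one and 84.6 kb from the predicted gene Gm2003. Those on chromosome 9 lay 19158 bp apart and count among its 32, and the first, at 808 bp, was the narrowest of the 242. How uniquely reads map there was not checked.

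Hormad1KO-only hotspots were uneven among chromosomes. Chromosome 9 held 32 (13.2%, 9.52 to 18.1), against 6.28% of shared hotspots, a difference of 6.94 points (3.17 to 11.8), and 9.67% of its Hormad1KO hotspots had no wild-type partner. Chromosome 1 held 30 (12.4%, 8.82 to 17.1) against 7.67%, a difference of 4.73 points (1.07 to 9.53). The other 18 chromosomes were not called, and the X held 6 (2.48%, against 4.45% and 4.36% of all). Of the 32 on chromosome 9, 13 lay beyond 110 Mb, with 52 shared hotspots in the same stretch. Without that stretch the chromosome 9 difference was 3.05 points (0.05 to 7.39). With intervals that hold for 20 chromosomes together, that of chromosome 9 excluded 0 (1.56 to 14.9) and that of chromosome 1 did not (−0.49 to 12.6). The chromosomes were compared after the counts had been seen. Both the counts and the choice of hotspots come from the same 2 DMC1 lists. These intervals and calls are therefore a description, not a test.

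**Figure D5:**
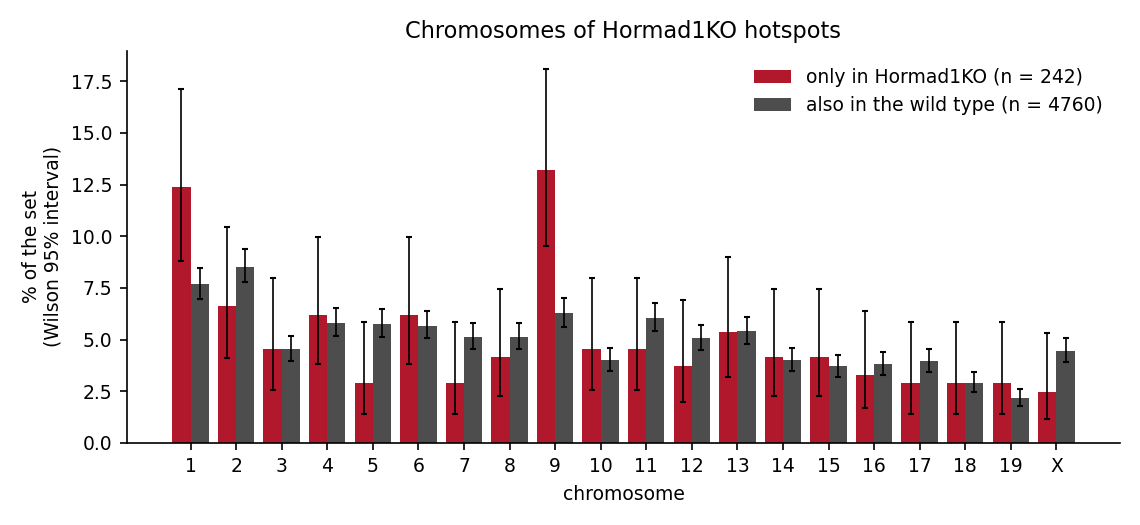
Share of each hotspot set on each chromosome (vertical axis, %, bars from 0, with Wilson 95% intervals) for the 242 hotspots found only in Hormad1KO and the 4760 also found in the wild type. Chromosome 9 holds 13.2% against 6.28%, and chromosome 1 holds 12.4% against 7.67%.

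Of the 242, 17 (7.02%) had another Hormad1KO-only hotspot within 100 kb and 47 (19.4%) within 500 kb. Any Hormad1KO hotspot lay within 20 kb of 35 (14.5%) and within 100 kb of 108 (44.6%). These spacings were not tested. In 4 places, 3 Hormad1KO-only hotspots followed each other with gaps under 200 kb. At chr9:112328790-112466357 their values were 167, 46 and 219.5, with no shared hotspot in between and no protein list at any of them. At chr1:172099826-172213004 they were 119.5, 26 and 28.5, the second of these at the Dcaf8 promoter, and 3 shared hotspots lay in the span. The values were 8, 21 and 22.5 at chr1:111967239-112346173, and 22.5, 20 and 32.5 at chr2:127253100-127465985, the 20 being at the Stard7 promoter.

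Relative to genes, Hormad1KO-only hotspots lay in a protein-coding gene body in 107 of 242 cases (44.2%, 38.1 to 50.5), against 58.9% of shared hotspots and 58.2% of all, a difference of −14.7 points (−21.0 to −8.24). The difference was −9.42 (−15.9 to −2.70) over 4 value classes. Gene starts of the promoter table, widened by 1 kb to each side, were met by 6 of 235 (2.55%, 1.18 to 5.46), against 2.64% of shared hotspots and 2.64% of all. The interval of that difference was −1.55 to 2.85 points. Of the 6, 4 had SYCP3 in Iho1KO (Nim1k, Stard7, Suz12 and Zfp445), against 22.1% of the 122 shared hotspots at gene starts, and 3 had CTCF (Nim1k, Dcaf8 and Stard7), against 10.7%. With 6 sites these shares were not tested. The Suz12 site (value 41) had no other list, the Dcaf8 site (value 26) had IHO1 in Hormad1KO without MEI4 there, and the Gm10334 site (value 18.5) had none.

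Set against the 9048 wild-type-only hotspots, the reciprocal set, the balance among genotypes differed. The share with a peak of any of the 21 lists was 15.3% against 20.5%, a difference of −5.17 points (−9.25 to −0.03). MEI4 was found more often at Hormad1KO-only hotspots in Iho1KO, at 7.44% against 1.17%, a difference of 6.27 points (3.57 to 10.3), and in Hormad1KO, at 8.26% against 4.53%, a difference of 3.73 (0.85 to 7.91). It was found less often in Spo11KO, at 2.48% against 7.29%, a difference of −4.82 (−6.26 to −1.94). For the wild type the shares were 0.83% and 1.12%, a difference that was not called (−0.94 to 1.86). Among sites at least 5 kb from a hotspot of the other list, the Iho1KO difference was 4.10 (1.89 to 7.77) and that of Hormad1KO was no longer called, at 1.65 (−0.81 to 5.52). Among hotspots in the lower 50% of each list by value, the Spo11KO difference was not called, at −0.26 (−0.96 to 2.03), while that of Iho1KO was, at 5.17 (2.81 to 8.99). IHO1 of Hormad1KO met 2.89% against 0.39%, a difference of 2.51 (1.01 to 5.46), and SYCP3 of Iho1KO 3.72% against 7.92%, a difference of −4.21 (−6.05 to −0.96). The first was no longer called in the lower 50% of each list (0.65, −0.009 to 2.92), and the second not with intervals for 22 lists together (−6.69 to 1.60). On 1 to 4 Hormad1KO-only hotspots each, MEI4 in Prdm9KO (0.41% against 0.033%), IHO1 in Prdm9KO (0.83% against 0.12%), HORMAD1 in the wild type (1.65% against 0.61%) and SYCP3 in Hormad1KO (1.24% against 0.31%) were also called higher. Their intervals began near 0, at 0.034, 0.098, 0.020 and 0.10 points. Gene starts were met by 2.55% against 12.9%, a difference of −10.4 (−11.9 to −7.37), and gene bodies by 44.2% against 56.4%, a difference of −12.2 (−18.4 to −5.84). CTCF met 6.61% against 9.22%, a difference that was not called (−5.18 to 1.29). Values of the 2 DMC1 lists are on scales that were not compared, so strength was not matched here.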

How the data were processed

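Testis chromatin was profiled by ChIP-seq, with enrichment of single-stranded DNA for DMC1. Bowtie2, MACS2 and the mm10 build are named in the submitters' processing notes, and their settings, thresholds and any pooling of replicates are not given in the sources used here. Per the series' design text, signal of a protein's own knockout was subtracted. Each group's list is attached to 1 sample. Deposited peaks of MEI4, IHO1, HORMAD1 and SYCP3 (21 lists) have positions and no strength. The DMC1 lists also hold a deposited signal value, always a multiple of 0.5, used to rank hotspots within the list. The deposited CTCF score was not used beyond the peak's position. Sequencing depth is unknown for every list, so precision comes from the number of hotspots alone, and the groups of SYCP3 in Prdm9KO, Spo11KO and Iho1KO have 1 sample each.

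Positions were compared with Python 3.11.15, numpy 2.4.6, pandas 2.3.3 and scipy 1.17.1, and plots made with matplotlib 3.10.9. A site counted as occupied from an overlap of 1 bp. Shares have Wilson and differences Newcombe 95% intervals, tested on simulated data. Genes are RefSeq of GRCm38.p6, the mm10 assembly. The promoter table has no entry for chromosome 18, which leaves 235 of 242 hotspots for gene starts. Coordinates count from 1. The sites named are the 5 of highest value, the 5 with most lists, the 3 nearest to and 3 farthest from a wild-type hotspot, and the 3 shared hotspots of smallest overlap, with the gene over them or the nearest. The hotspots, lists and tests were chosen with earlier results of these data known. The alternatives changed the overlap, window, chromosomes, distance, value range, value classes and interval. The comparisons by 20 value classes, by chromosome, with wild-type-only hotspots and without the site of 15 lists were added after the data were seen.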

Additional observations from a re-analysis of the deposited data

How the results depend on the processing

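No paired analysis was possible because there was 1 list per group and the results come from no test across replicates. The difference for MEI4 in Hormad1KO stayed called lower under all 10 alternatives, from −63.5 to −22.1 percentage points. IHO1 in Hormad1KO lost its call with 4 value classes (−2.77) and 20 value classes (−2.38). CTCF, never called, changed sign with an overlap of 50% (0.15), 4 value classes (0.24) and 20 value classes (0.058). The number of called lists, 12 of 22, fell to 6 among hotspots of the upper 50% by value and to 6 with 20 value classes. Against wild-type hotspots of the upper 50% by value, 721 hotspots had no partner. Other differences that changed sign, called at first only for HORMAD1 in Prdm9KO, were, in the upper 50% by value, MEI4 in Prdm9KO (−0.080), IHO1 in Prdm9KO (−0.20), HORMAD1 in Prdm9KO (−0.20), SYCP3 in Prdm9KO (−0.28), SYCP3 in Iho1KO (−5.27), SYCP3 in Hormad1KO (6.90) and the X chromosome (1.76). SYCP3 in Hormad1KO also did so with 4 (0.49) and 20 (0.94) value classes. Gene starts did so with an overlap of 50% (1.38), a 1 kb window (0.84), autosomes only (0.012) and hotspots at least 5 kb from a wild-type hotspot (0.039). Without the site of 15 lists, MEI4 in Prdm9KO (−0.084) and SYCP3 in Iho1KO (−0.084) did so. Against wild-type-only hotspots, MEI4 in the wild type did so in the lower 50% of each list (0.28), and MEI4 in Spo11KO lost its call there (−0.26), as did IHO1 in Hormad1KO (0.65). With intervals that hold for 22 lists together, MEI4 in Hormad1KO, MEI4 in Spo11KO, MEI4 in Prdm9KO and SYCP3 in Iho1KO lost their calls against wild-type-only hotspots. The causes were not tested. Only 15 Hormad1KO-only hotspots lie above the median value of shared hotspots, so shares among strong ones have wide intervals.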
